A study of Drosophila melanogaster with 4 samples.

Results

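Many protein-coding genes of Drosophila melanogaster still carry only a CG number, the provisional symbol given when the genome was annotated, because no mutant or function has named them. Here the CG-symbol genes whose RNA level separated control from Antp RNAi flight muscle myoblasts were examined. They were selected on these measured values. A gene entered when its symbol was CG followed by digits, when it lay outside chromosome 4, when its mean over the 4 libraries was at least 2 CPM (a gene's share of the library's counts, scaled to a common total), and when the larger value of the lower group stayed below 0.5 times the smaller value of the higher group. CG11425, CG11426, CG11437 and CG11438 were left out. This gave 28 genes, of 2650 CG-symbol genes at or above 2 CPM and 6469 in the whole table of 17494 genes. Of these, 16 were higher and 12 lower in Antp RNAi. Separation over 2-fold was found in 0.654% of all 7949 genes at or above 2 CPM in the higher direction and in 0.642% in the lower direction. As the selection used this contrast, the levels and fold changes of the 28 genes are given as a description without a test.

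Wing disc-associated myoblasts are the undifferentiated precursors that adhere to the larval wing disc and later fuse into the adult flight muscle. Antennapedia (Antp) is a Hox gene, one of the transcription factor genes that set segment identity along the body. In both groups Mef2-Gal4, a driver active in muscle and its precursors, expressed nuclear GFP together with a hairpin, and animals were raised at 29°C and taken at 0 hours after puparium formation (APF). The control carried Mef2-Gal4;UAS-GFPnls;UAS-Y RNAi, a hairpin against the pigmentation gene yellow (y), although its titles read WT, and the other group carried Mef2-Gal4;UAS-GFPnls;UAS-Antp RNAi. Myoblasts from 30 to 35 discs were sorted to about 50000 cells, and 2 ng of RNA were amplified in 10 cycles for cDNA and 12 for the library. The libraries analysed were replicates 2 and 3 of the control and replicates 1 and 2 of Antp RNAi. The hairpin and its insertion change together between the groups, and the strain background may change with them, so their effects cannot be told apart. Fewer cells expressing a gene cannot be told apart from less RNA per cell either.

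The libraries held 42110502 to 53957914 counts, so that 0 counts allowed up to 0.0556 to 0.0712 CPM (3 counts per library, counting error only), and 12537 to 12800 genes had at least 1 count. Antp itself stood at 192 and 173 CPM in the control and 136 and 142 CPM in Antp RNAi. In the quasi-likelihood test of edgeR, used throughout for adjusted p-values, this gave an adjusted p of 0.145 and did not pass the threshold of 0.001. Myoblast markers such as twi and zfh1 were abundant in each library, with a summed level of 12800 to 15600 CPM over the 13 of 14 markers found. None was called by edgeR, and the median log2 fold change was 0.10. Single markers differed in both directions, as ct was at 263 and 264 against 159 and 128 CPM (-0.86) and sns at 23.3 and 21.0 against 44.0 and 36.9 CPM (0.88). Hemocyte markers summed to 320 and 314 CPM in the control and 154 and 157 CPM in Antp RNAi. This moved with Pxn (170 and 152 against 7.03 and 5.60 CPM), since the list without Pxn gave 150 and 161 against 147 and 151 CPM. That remainder was mostly vkg (82.9 to 95.4 CPM) and crq (39.4 to 44.4 CPM), so it says little about the scarcer hemocyte markers. NimC1 was low in Antp RNAi too (0.829 and 0.834 against 0.0237 and 0.0214 CPM), and the median log2 fold change of the 8 hemocyte markers tested was -0.44. Hml, another defining hemocyte marker, was at 0.188 CPM in control replicate 2 and at 0 in the other 3 libraries. Fat body markers summed to 304 to 435 CPM, nearly all of it from Larp4B (265 and 292 against 364 and 291 CPM) and FASN1 (31.2 to 45.2 CPM). Fbp1, Lsp2 and AkhR were at 0 throughout, and Fbp2, Lsp1alpha, Lsp1beta and Lsp1gamma were at most 0.301 CPM. The fat body marker apolpp, the lipoprotein precursor, was called higher (0.414 and 0.778 against 26.6 and 12.0 CPM). Germline and testis markers summed to 60.5 and 62.8 CPM in the control and 137 and 142 CPM in Antp RNAi, which moved mostly with krimp. Without krimp they summed to 44.3 and 40.0 against 47.9 and 50.8 CPM, with Mst84Da and Mst98Ca at 0. In that list piwi was higher too (3.01 and 3.21 against 7.03 and 6.43 CPM, log2 fold change 1.13), while nos (-0.12) and bam (-0.06) were slightly lower. Disc epithelium, tracheal and neuron markers summed to 1330 to 1560, 32.6 to 43.7 and 765 to 949 CPM, with no gene called. The disc sum was led by sd (721 to 822 CPM) and the neuron sum by CadN (598 to 795 CPM). Both sums thus say little about scarcer markers, such as nSyb, brp and Syt1 at up to 1.61 CPM. Members moved both ways, with log2 fold changes of 1.23 (Fas3), 1.1 (nub), 1.43 (wg), -1.51 (futsch) and -2.51 (Gasp). The levels of wg overlapped between the groups. The part of these cell types in the values below was not tested.

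CG18635 was by far the most reduced of the set. This gene (FBgn0034279, chromosome 2R, 17767808 to 17769989, minus strand, genome build dm6) was counted 1891 and 1731 times in the control libraries but 33 and 17 times in the Antp RNAi libraries. The levels were 35.6 and 32.1 CPM against 0.784 and 0.363 CPM, so the control libraries lay close together and far above both Antp RNAi libraries, and 1.69% of the control mean was left. Its log2 fold change, fitted by edgeR, was -5.88 ± 0.28 (SE), and -6.50 without Antp RNAi replicate 1. The next largest reduction in the set, that of CG10479, was -2.55. CG18635 was also the single lower gene that stayed under 1 CPM in both Antp RNAi libraries, while the other 11 stayed above 1 CPM in both.

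A group of 3 genes kept between 17.0% and 23.0% of the control mean. CG10479 (3L, 5967545 to 5976007, minus strand) was at 8.74 and 9.82 CPM in the control and 1.78 and 1.37 CPM in Antp RNAi. CG32365 (3L, 7869042 to 7894814, plus strand) was at 13.3 and 12.9 against 2.80 and 2.54 CPM, a log2 fold change of -2.28 ± 0.19 (SE). CG33993 (3L, 5933036 to 5950658, minus strand) was at 18.3 CPM in both control libraries and at 4.35 and 4.06 CPM in Antp RNAi, or -2.11 ± 0.16 (SE) on the log2 scale. In all 3 the gap between the groups was several times wider than the distance between libraries of one group. CG33993 is the one gene of the set that has since received a name, Egfrap, in the current gene table, and that name ties it to the epidermal growth factor receptor pathway.

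The remaining 8 lower genes kept 27.2% to 44.3% of the control mean. CG5080 (2L, 1160290 to 1163886) was at 21.4 and 24.9 against 7.15 and 5.47 CPM, and CG34377 (3R, 22308663 to 22324094) at 17.0 and 18.6 against 4.92 and 5.34 CPM. CG31075 (3R, 26985624 to 26988517), which encodes an aldehyde dehydrogenase, was at 20.9 and 18.7 against 5.94 and 6.94 CPM. These 3 genes had like CPM within each group, but not per kilobase of exon. In the group means CG5080 had 8.86 against 2.41, CG34377 3.37 against 0.97 and CG31075 10.6 against 3.44 CPM per kilobase. The most abundant genes of the set in the control were also in this group, which holds as well per kilobase of exon. CG12880 (3R, 27685962 to 27692790) had 282 and 290 against 113 and 110 CPM, or 151 against 58.7 CPM per kilobase in the group means. CG31055 (3R, 27685632 to 27688134) had 121 and 134 against 46.6 and 46.0 CPM and CG4570 (3R, 10856807 to 10858066) 52.6 and 48.7 against 18.7 and 17.4 CPM. These abundant genes had the smallest standard errors of the set, 0.10 to 0.12, around log2 fold changes of -1.35 (CG12880), -1.44 (CG31055) and -1.48 (CG4570). The weakest separations were those of CG16700 (4.37 and 4.71 against 1.64 and 1.84 CPM) and CG15580 (3.07 and 2.97 against 1.33 and 1.35 CPM).

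**Figure D1:**
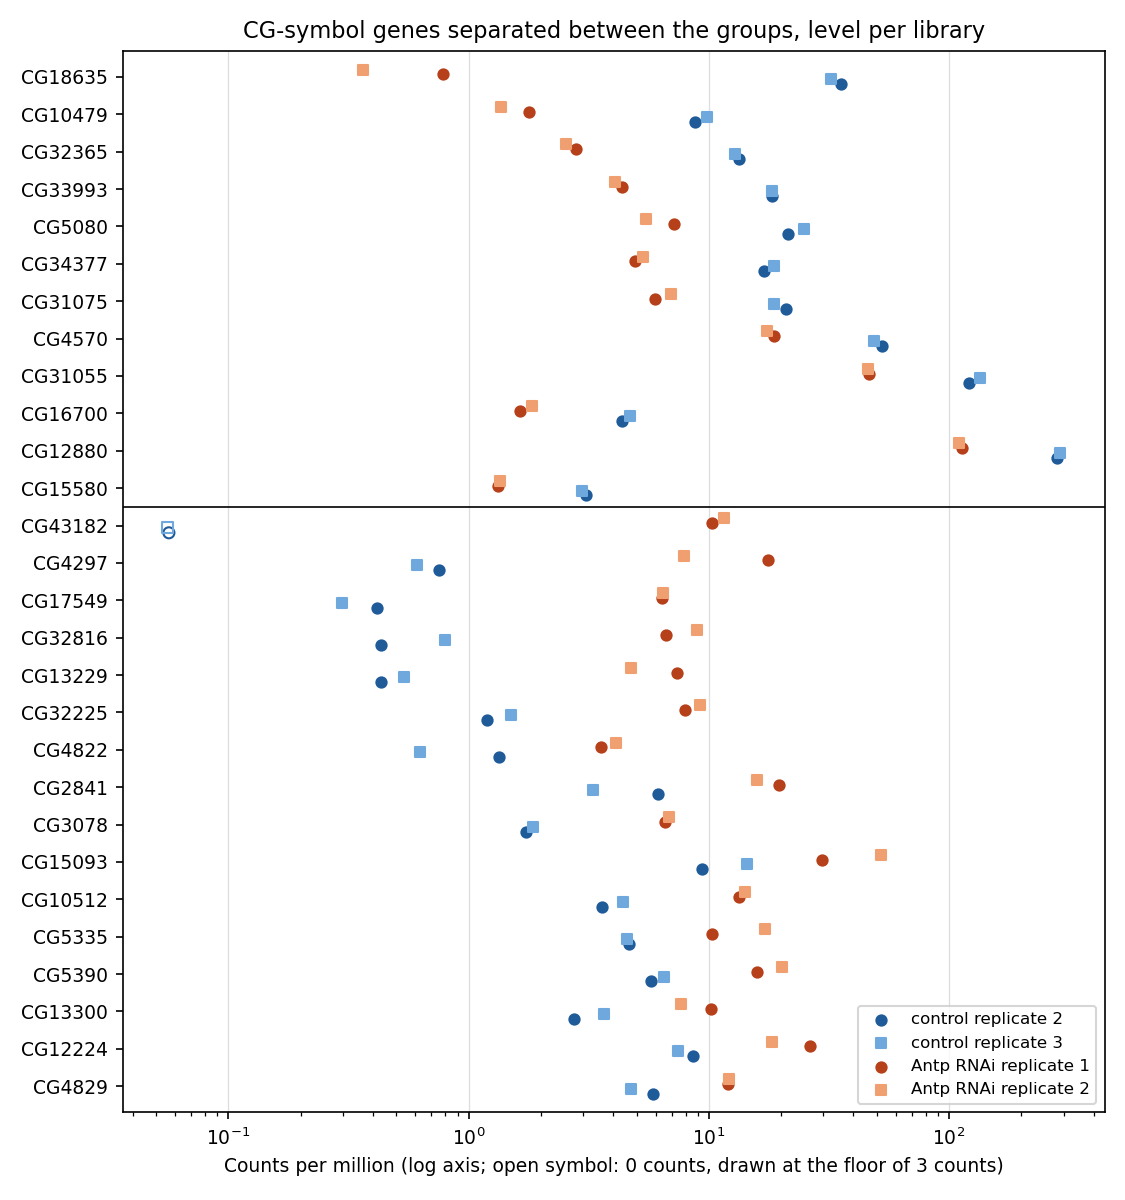
Level of each of the 28 genes in CPM on a log axis, 1 row per gene, with the lower genes above the line and the higher genes under it. Each symbol is 1 library, blue for control and orange for Antp RNAi, and open symbols mark the 0 counts of CG43182 in the control at the floor of 3 counts. The widest gap among lower genes is that of CG18635 (35.6 and 32.1 against 0.784 and 0.363 CPM).

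Among the 16 higher genes, 5 were under 1 CPM in both control libraries and 11 were under 5 CPM in both. The median of their control means was 2.5 CPM and that of their Antp RNAi means 11.5 CPM, whereas the lower genes went from a median of 19.1 to 4.67 CPM. The selection favours this, as a higher gene must be lower in the control and can reach a mean of 2 CPM through Antp RNAi alone. That many of the higher genes were scarce RNAs in control myoblasts is thus a description of the set and no separate result. CG43182 (X, 353067 to 353317, plus strand) is the extreme case. It had 0 counts in both control libraries and 435 and 543 counts in Antp RNAi, or 10.3 and 11.6 CPM, a level at least 196-fold higher when the control is set to the floor of 3 counts per library. It is also the shortest gene of the set, with 1 exon of 251 bases.

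A further 4 genes differed by more than 10-fold in group means. CG4297 (2L, 458876 to 472200, minus strand) was at 0.754 and 0.612 CPM in the control and 17.7 and 7.88 CPM in Antp RNAi. Its Antp RNAi libraries were 2.24-fold apart, the widest within-group ratio of the set, and its log2 fold change of 4.23 ± 0.41 (SE) was 3.56 without Antp RNAi replicate 1. CG17549 (2L, 19387050 to 19390075, minus strand) showed nearly the same increase with tighter Antp RNAi libraries, at 0.414 and 0.297 against 6.36 and 6.45 CPM and a log2 fold change of 4.18 ± 0.31 (SE). CG32816 (X, 316576 to 470726, minus strand) was at 0.433 and 0.797 against 6.65 and 8.93 CPM, and CG13229 (2R, 11139304 to 11172206, minus strand) at 0.433 and 0.537 against 7.39 and 4.74 CPM. In these genes the control rested on 16 to 43 counts per library, so the size of the fold is less certain than its direction. CG32225 (3L, 20304310 to 20306283, minus strand) followed with 1.19 and 1.5 against 7.93 and 9.18 CPM.

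The other 10 higher genes had 2.27 to 3.88 times the control mean. CG4822 (2L, 116970 to 121754), an ABC transporter of the G family, was at 1.34 and 0.630 CPM in the control and 3.54 and 4.10 CPM in Antp RNAi. CG2841 (X, 2344949 to 2366356) was at 6.14 and 3.30 against 19.5 and 15.9 CPM. In both of these the control libraries differed by more than the Antp RNAi libraries did, 2.12-fold for CG4822 and 1.86-fold for CG2841. The log2 fold change of CG4822 was 1.97 ± 0.39 (SE) and 2.64 without control replicate 2. CG3078 (X, 2254403 to 2259863) showed no such spread, at 1.73 and 1.85 against 6.55 and 6.81 CPM. CG5390 (2L, 10304069 to 10306594), a clip-domain serine protease homolog, was at 5.73 and 6.51 against 15.8 and 20.2 CPM, and CG5335 (2R, 18621541 to 18622986) at 4.63 and 4.58 against 10.3 and 17.1 CPM. CG13300 (3L, 6329324 to 6352390) was at 2.75 and 3.65 against 10.2 and 7.67 CPM. CG4829 (X, 16811699 to 16826494), a gamma-glutamyltranspeptidase of glutathione breakdown, was at 5.86 and 4.74 against 12.0 and 12.1 CPM and had the smallest ratio of means of the higher genes. Every higher gene of this group was detected with at least 34 counts in each control library.

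Within the set, 4 genes encode oxidoreductases, enzymes that move electrons between a metabolite and a cofactor such as NAD(P), and 3 of them were higher. CG15093 (2R, 18775669 to 18776978), the homolog of 3-hydroxyisobutyrate dehydrogenase in valine breakdown, was at 9.34 and 14.4 CPM in the control and 29.6 and 52.2 CPM in Antp RNAi, and its libraries differed by 1.54-fold within the control and 1.76-fold within Antp RNAi. CG10512 (3L, 21202920 to 21208092), of the malate and lactate dehydrogenase family, was at 3.60 and 4.39 against 13.3 and 14.1 CPM. CG12224 (3R, 11980704 to 11982622), of the aldo-keto reductase family, was at 8.55 and 7.45 against 26.3 and 18.4 CPM. Their log2 fold changes were 1.81 (CG15093), 1.80 (CG10512) and 1.49 (CG12224). The aldehyde dehydrogenase CG31075, described above, went the other way at -1.60. CG12224 stands between close family members, and these did not share its change. On its left CG18547 had 41.3 and 42.2 against 52.0 and 56.8 CPM, and on its right CG3397 had 23 and 27 against 6 and 10 counts, with log2 fold changes of 0.40 and -1.35 (adjusted p 0.148 and 0.406, edgeR).

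Across the set, the levels were low. The median of the mean level per kilobase of exon was 3.47 CPM, against 15.7 CPM for all CG-symbol genes at or above 2 CPM. Genes with other names that were separated by the same rule were low too, with a median of 4.30 CPM per kilobase against 26.4 for all such genes. Only 4 of the 28 genes, CG12880, CG31055, CG4570 and CG15093, had a mean over 20 CPM, although 1555 of the 2650 CG-symbol genes (58.7%) did. The share separated was 1.09% for genes with a CG number (29 of 2650, counting CG11426, which was left out above) and 1.40% for all others (74 of 5299, 36 higher and 38 lower), and this difference was not tested. Both shares count genes of every chromosome, chromosome 4 included. The median exon length was 2382 bases in the set and 1822 among all CG-symbol genes at or above 2 CPM, and the median span on the genome was 4979 against 2225 bases. All 28 genes are annotated as protein-coding.

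**Figure D2:**
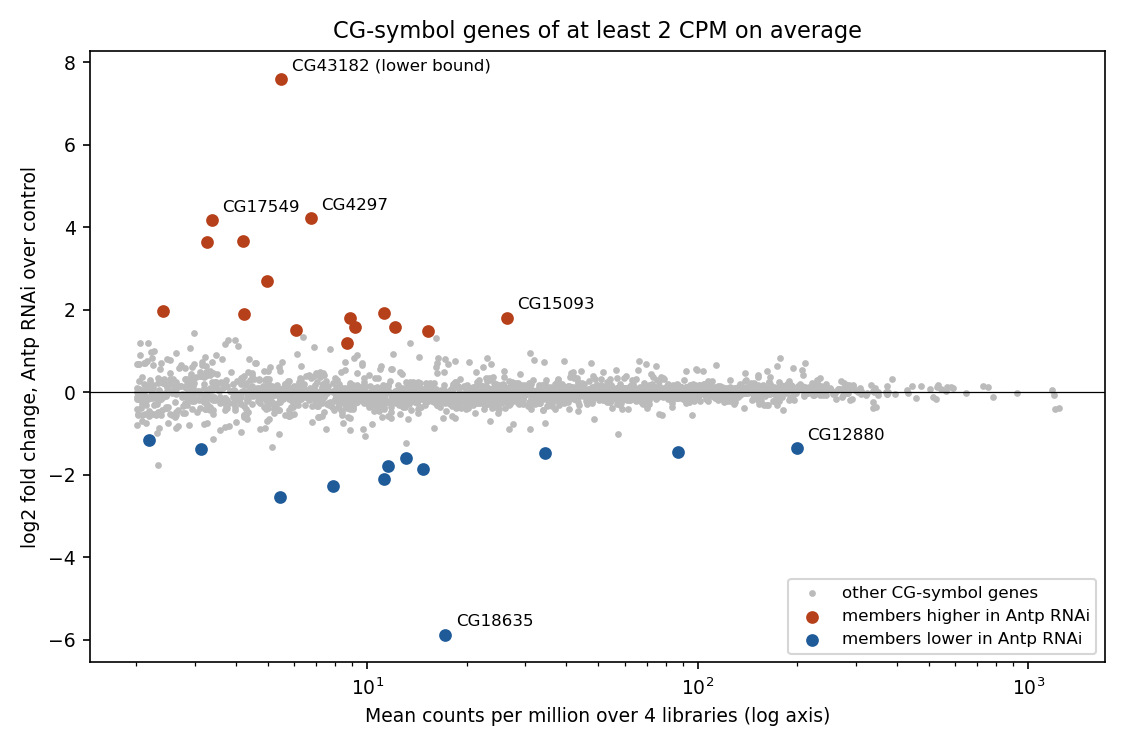
Fitted log2 fold change between Antp RNAi and control against the mean level over 4 libraries (log axis, CPM) for CG-symbol genes of at least 2 CPM, with the 16 higher genes in orange, the 12 lower genes in blue and all others in grey. CG43182 is drawn at its lower bound of 7.61. Only CG12880, CG31055, CG4570 and CG15093 of the set lie beyond 20 CPM.

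In the fit across all 10360 genes tested, edgeR's quasi-likelihood test called 5 of the 16 higher and 8 of the 12 lower genes at an adjusted p under 0.001, where it called 0.203% of all genes as higher and 0.261% as lower. The higher genes called were CG43182, CG17549, CG32816, CG13229 and CG32225. The lower genes called were CG18635, CG10479, CG32365, CG33993, CG34377, CG4570, CG31055 and CG12880. Nothing is read from these counts, as the same libraries chose the genes, and DESeq2 called 26 of the 28.

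Most genes of the set had libraries of one group within 1.5-fold of each other. The Antp RNAi libraries were more than 1.5-fold apart in 5 genes (CG4297, CG18635, CG15093, CG5335 and CG13229) and the control libraries in 4 genes (CG4822, CG2841, CG32816 and CG15093). Of all CG-symbol genes at or above 2 CPM, 6.57% and 3.47% were that far apart, smaller shares than 5 and 4 of the 28 genes. This difference was not tested. CG18635 is the one lower gene among those named, and CG15093 is in both counts. The lowest count behind these was 17, for CG18635 in Antp RNAi replicate 2.

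The edge of the selection shows how continuous the values were. Just inside it, CG4829 and CG15093 had a larger control value 2.05 and 2.06 times below the smaller Antp RNAi value, and just outside, CG33056 (2.52 and 2.13 against 6.27 and 4.93 CPM) and CG12560 (4.50 and 2.80 against 9.43 and 8.78 CPM) had 1.95 times. In the lower direction CG15580 and CG16700 lay just inside at 2.20 and 2.38 times, and CG5160 (7.52 and 7.26 against 3.68 and 2.16 CPM) and CG1648 (19.4 and 17.4 against 6.55 and 8.95 CPM) just outside at 1.97 and 1.94 times. Genes on both sides of the edge were thus close in value.

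Position was not used by the selection apart from chromosome 4. The X held 5 higher and 1 lower gene, 2L held 4 and 1, 2R held 3 and 1, 3L held 3 and 3, and 3R held 1 and 6. Among genes with other names that were separated by the same rule, the X held 5 higher and 4 lower and 3R held 8 higher and 11 lower. Over all genes tested, the median log2 fold change per arm lay between -0.02 and 0.01. The first 2.5 Mb of the X held 4 of the 5 higher genes of that arm, CG32816, CG43182, CG3078 and CG2841, with 74 of the 500 CG-symbol genes of the X at or above 2 CPM. Of all 250 genes tested there, 9 had a log2 fold change over 1 and 2 under -1, against 36 and 37 of the 1515 in the rest of the X. This interval was chosen after its values were seen, and no test was made.

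In 3 places, 2 genes of the set lay within 20 kb of each other, and in each pair both went in the same direction. CG43182 lies within the span of CG32816 on the opposite strand, without shared exon bases. CG12880 and CG31055 run on opposite strands and share 304 exon bases, which is 16.1% of the exons of CG12880 and 14.7% of those of CG31055. CG33993 and CG10479 follow each other on the minus strand of 3L, 16887 bases apart. The gene beyond each end of that last pair did not move with it, as Rcc1, the exchange factor of the GTPase Ran, stood 263 bases away at 0.08 and tant stood 79129 bases away at 0.07 on the log2 scale.

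The pair on the X contains the target of the control hairpin. The gene y lies 3192 bases to the right of CG43182, and like CG43182 it had 0 counts in both control libraries, with 382 and 365 counts in Antp RNAi, a level at least 150-fold higher by the same floor (adjusted p 1.03e-04, edgeR). The span of CG32816 also covers the achaete-scute complex, whose genes encode proneural transcription factors. Of these, l(1)sc had 0 and 0 against 39 and 28 counts and ase 0 and 0 against 5 and 6 counts. The genes ac (11 and 13 against 10 and 6 counts) and sc (18 and 26 against 28 and 9 counts) were present in all 4 libraries at low counts, with log2 fold changes of -0.29 and 0.06. On the left of CG43182, CG3777 had 10 and 29 against 53 and 56 counts, or 1.77 on the log2 scale (adjusted p 0.187, edgeR). On the right of CG32816, ebo was level at 210 and 219 against 235 and 234 CPM. No hairpin is labelled as targeting CG43182 or CG32816. The groups may also differ in strain background here, so an effect of the y hairpin, the y locus or its alleles cannot be told apart from one of Antp RNAi. The gene w, a marker commonly carried by fly transgenes, went from 283 and 283 to 2150 and 2270 CPM and lay 0.424 Mb from CG2841 and 0.531 Mb from CG3078. The gene tio, beside a common landing site for transgenes, was at 13.8 and 9.80 against 3.92 and 1.90 CPM and lay 2.63 Mb from CG17549, its nearest gene of the set.

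The gene nearest to CG18635 was low in Antp RNAi as well. CG14488 lies 22 bases to its left on the same strand and was counted 108 and 79 times in the control but 3 and 5 times in Antp RNAi. Its log2 fold change was -4.23 ± 0.52 (SE). The edgeR adjusted p of 0.00446 does not pass 0.001. The genes next to this pair stayed near 0 on the log2 scale. On the right CG6362, 416 bases away on the same strand, was at -0.21 ± 0.39 (SE), and on the left, beyond CG14488, asRNA:CR44416 was at -0.28 and OstDelta, a subunit of oligosaccharyltransferase, at -0.15. Of the 25 genes tested within 50 kb, CG18635 included, 22 had a log2 fold change within 0.5 of 0.

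Around CG34377 a run of scarce genes was low in Antp RNAi as well. CG34377 kept 28.8% of the control mean. To its right CG7080, CG13862, CG5391 and CG5388 had log2 fold changes of -1.60, -2.52, -2.47 and -1.98, on 35 and 24 against 3 and 13 counts for CG7080, 72 and 61 against 7 and 12 for CG13862, 94 and 96 against 11 and 17 for CG5391 and 19 and 25 against 3 and 6 for CG5388. In each of these both Antp RNAi libraries lay under both control libraries. Their adjusted p-values from edgeR were 0.424, 0.0354, 0.0203 and 0.230, so none passed 0.001. To the left CG7084 was at -0.79 and SKIP, with 61500 and 62586 against 33602 and 32679 counts, at -0.62. The run ended at Sar1, the GTPase of COPII vesicle coats, at -0.03, with PSR beside it at -0.02. Of the 16 genes tested within 50 kb, CG34377 included, 6 were below -1 and none above 1.

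**Figure D3:**
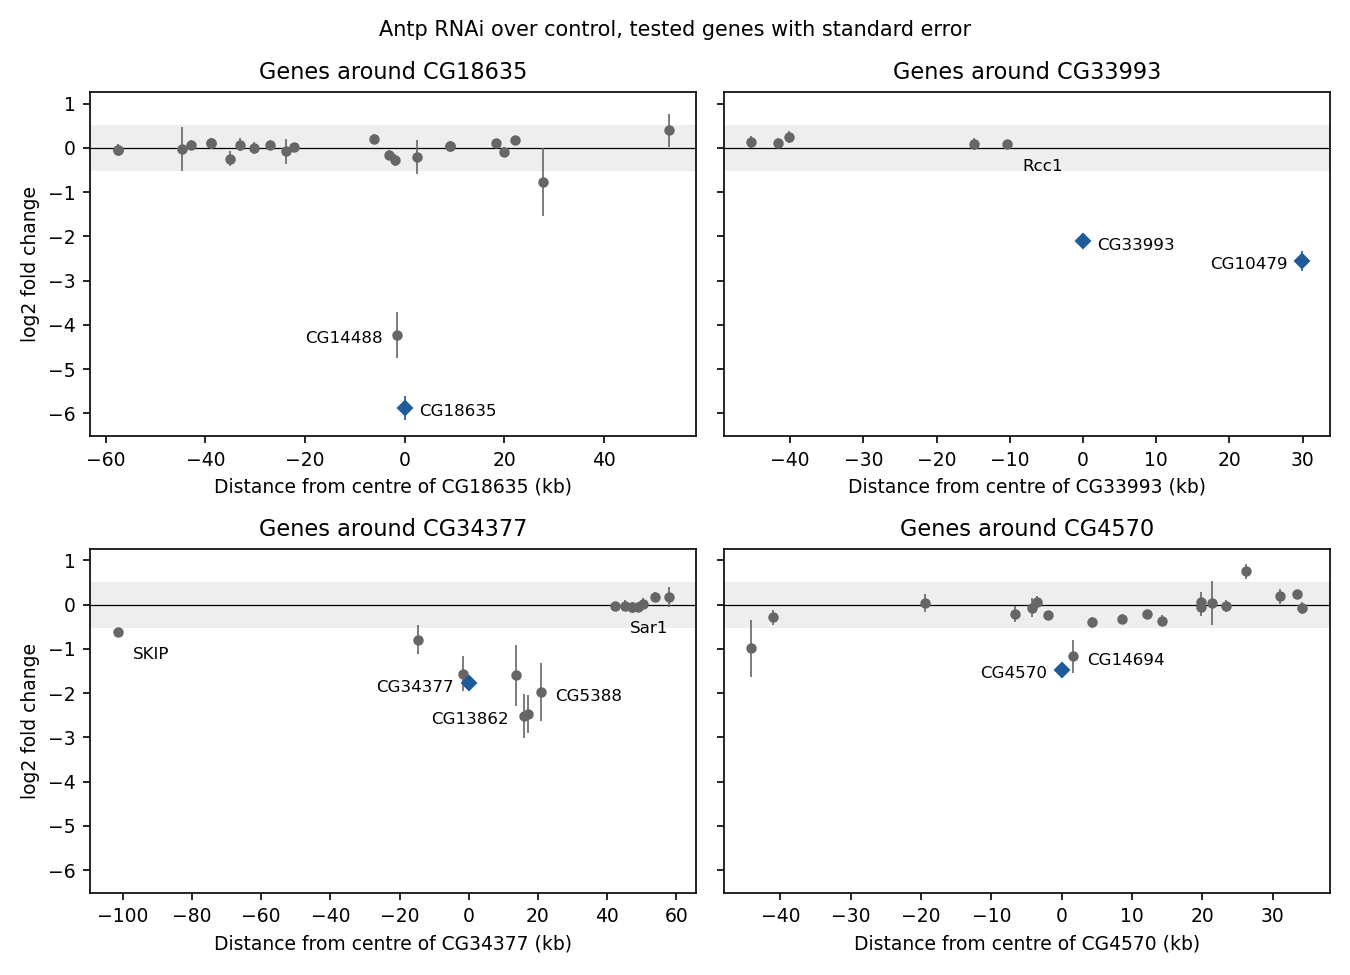
Log2 fold change between Antp RNAi and control, with its standard error, for the genes tested around CG18635, CG33993, CG34377 and CG4570, against the distance of each gene's centre from the centre of the named gene in kilobases. Blue diamonds are genes of the set, grey points are other genes, and the grey band covers values within 0.5 of 0. CG14488 at -4.23 is the one other gene near CG18635 that lies far from 0, while around CG34377 a run of genes lies between -2.52 and -0.79.

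Neighbours were then counted for all 28 genes. Over the nearest tested gene that did not overlap on each side, 38 of 56 neighbours (67.9%) had a log2 fold change within 0.5 of 0, where 83.6% of all genes tested did. Sce (-0.05) and Acp98AB (-0.11) were each counted for both CG12880 and CG31055, which share these neighbours. A log2 fold change over 1 in the same direction was found in 9 of 56 (16.1%), beside 8 genes of the set, and one over 1 in the opposite direction in 1, CG3397. Of these 9, 2 were CG33993 and CG10479, each the neighbour of the other. Over all genes tested, 6.15% had a log2 fold change of that size in either direction. Neighbours of separated genes with other names, chromosome 4 included, gave shares of 18.4% (27 of 147) for the same direction and 68.0% within 0.5. When only the 36 neighbours of at least 2 CPM were counted, 4 moved over 1 in the same direction.

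The remaining neighbours of that kind were low or distant. Mctp, a membrane protein gene with C2 domains, lies 845 bases from CG15093 and had 0 and 3 against 22 and 22 counts (log2 fold change 4.04, adjusted p 0.067, edgeR). CG14694, 136 bases from CG4570 and on the other strand, had 129 and 145 against 32 and 69 counts (-1.17, adjusted p 0.236, edgeR). Gasp, which encodes a chitin-binding protein of the cuticle and tracheae, lies 31263 bases from CG15580 and had 319 and 379 against 24 and 78 counts (-2.51, adjusted p 0.0227, edgeR). None of these passed 0.001. Among the other neighbours, some were nearly level and others were not. At 3371 bases from CG32225, polo, a mitotic kinase, was at 493 and 473 against 485 and 517 CPM (0.07), and at 813 bases from CG4297, MED15, a subunit of Mediator, was at 185 and 189 against 201 and 191 CPM (0.08). Both neighbours of CG13300 were distant, Ldh at 66630 and CG42747 at 48200 bases, and differed more and in opposite directions. On its left Ldh, lactate dehydrogenase, was at 10.5 and 9.25 against 4.39 and 5.40 CPM (-0.99, adjusted p 0.0443, edgeR), and on its right CG42747 was at 17.4 and 18.8 against 33.0 and 25.2 CPM (0.70, adjusted p 0.0613, edgeR), neither past 0.001.

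**Figure D4:**
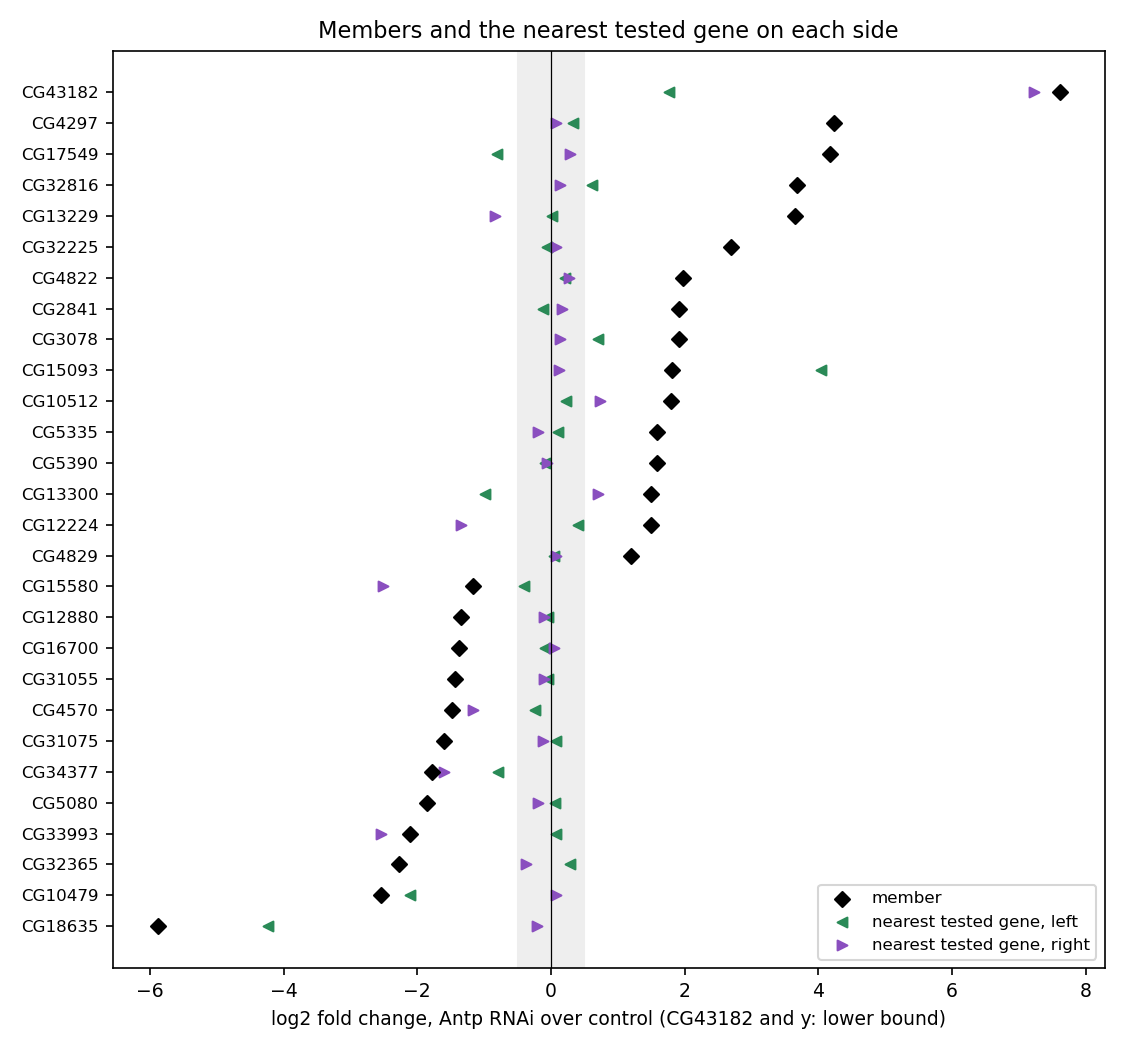
Log2 fold change between Antp RNAi and control for each of the 28 genes (diamonds) and for the nearest tested gene to its left and right (triangles), with CG43182 and y at their lower bounds. The grey band covers values within 0.5 of 0, and 38 of the 56 neighbours lie inside it.

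Counts of 8 genes of the set could include reads of a gene that shares exon bases. The largest overlap was that of CG15093, as 1137 bases or 86.8% of its exons also belong to asRNA:CR43964 on the other strand, which had 455 and 695 against 1123 and 2245 counts beside 496 and 775 against 1248 and 2446 for CG15093. The use of strand in counting was not given in the sources used here, so the pair cannot be told apart. CG16700, an amino acid transporter, shares 278 bases on the same strand with CG4991, a transporter of the same family, which had 35 and 37 against 8 and 8 counts and a log2 fold change of -1.87 beside -1.37 for CG16700. CG10512 shares 155 bases with CG33056 (1.28), and CG31075 shares 83 bases with CG14253 (-1.25) and CG46313 (-1.31). CG34377 shares 245 bases with asRNA:CR46261 (-1.56), and CG13229 shares 12 bases with BBS4, which had at most 18 counts. The other 20 genes shared no exon base with another gene. Unlike CG32816, the host of CG43182, which is itself in the set, 2 other hosts had a small log2 fold change. CG32225 lies in SCCRO4 (0.09 ± 0.12, SE) and CG5335 in Atg7, an autophagy enzyme gene (0.27 ± 0.14, SE).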

How the data were processed

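RNA of sorted wing disc-associated myoblasts was sequenced, and per the labels the authors processed reads with bcl2fastq 2.17.1.14, Subread, featureCounts and DESeq2 1.34 on genome build dm6. The deposited table holds raw counts per gene for 4 libraries, without normalization. A deposited comparison was used only for gene symbols. That table holds the authors' normalised mean, log2 fold change with its error, Wald statistic, p-value and adjusted p-value per gene, and none of these values was used. The labels speak of independent biological replicates, the methods of technical replicates, so p-values cover only the spread between these libraries.

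CPM are counts divided by library totals. Counts were fitted with edgeR 4.0.16 in R 4.3.3 (TMM, quasi-likelihood test, two-sided, minimum count 10, Benjamini-Hochberg adjustment, threshold 0.001), with DESeq2 1.42.0 and limma-voom 3.58.1 as alternatives. The fit was tested on simulated data. Groups were taken from sample titles. Coordinates are those of the deposited table, and 27 of the 28 genes have the same start and end in annotation release 115. Named genes were the 10 most changed per direction, those near each other or near the selection's edge, those in a class of at least 3, their nearest tested neighbours, and Antp, y, w and tio. The genes and lists were chosen with earlier results of these data known. Promoters and proteins were not analysed here.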

Additional observations from a re-analysis of the deposited data

How the results depend on the processing

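Of the settings tried, CPM on TMM-scaled library sizes and 1 gene per set of equal counts kept all 28 genes, and leaving out genes that share exon bases kept 20 (13 higher, 7 lower). A fold of 1.5, 3 or 4 gave 69 (37 higher, 32 lower), 13 (8 and 5) and 10 genes (6 and 4), and a mean CPM of at least 1, 5 or 10 gave 46 (25 higher, 21 lower), 20 (10 and 10) and 12 (4 and 8). Leaving out 1 library gave 38 to 49 genes (19 to 28 higher, 14 to 23 lower), since fewer values have to be separated, and each kept 27 of the 28. CG15580 was lost without either control library, CG13229 without Antp RNAi replicate 1 and CG4822 without Antp RNAi replicate 2. These genes were lost because their mean fell below 2 CPM, as leaving out a library can only ease the separation. No direction turned in any of these settings.

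The 48 genes called by edgeR became 236 with DESeq2, 120 with every gene of at least 1 count and 267 at an adjusted p under 0.05, and 32 to 63 otherwise. Of the 28 genes, 13 were called, 8 with median-of-ratios size factors, upper-quartile scaling or a mean of at least 100 counts, 7 with limma-voom, 16 with library totals, 22 with every gene of at least 1 count, 26 with DESeq2 and 27 at 0.05. The cause was not tested. Another scaling, prior count or tool moved a log2 fold change by at most 0.14 and leaving out 1 library by at most 0.67. The widest ranges were those of CG4822 (1.52 to 2.64), CG4297 (3.56 to 4.71), CG18635 (-6.50 to -5.41) and CG2841 (1.54 to 2.46). The 9 neighbours moving the same way over 1 were 4 among neighbours of at least 2 CPM, 6 within 10 kb and 7 among genes outside the set, settings chosen after seeing the data.

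No paired analysis was possible because both groups have just the number 2 in common. A longer promoter window was not run, as no sequence was used here. Depth limits the higher genes most, since 5 of the 16 rested on at most 43 counts per control library.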
